A study of Mus musculus with 14 samples.

Results

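The genes described here are 37 interferon-stimulated genes outside the oligoadenylate synthetase (Oas) family. They were taken as a named list, and each gene was read from a probe set that carries its symbol alone, using the brightest such probe set where a gene had several. On the larger (first) array design 34 of the 37 genes had such a probe set and 32 were tested, among 16635 tested genes of 22180. Mx1 and Mx2 were among the dimmest 25% of genes and were left out of the tests, while Ifi44, Ifi27l2a and Dtx3l had no such probe set there. On the second design 35 of the 37 genes were read, among 19938 genes, and Ifi44 and Isg15 were not. Together 33 genes were read on both designs.

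The samples were tumours grown from B16-F10 cells, a pigmented melanoma line of C57BL/6 mice, implanted under the skin of both flanks of mice of that strain. Res 499 and Res 177 are sublines that the labels class as resistant to radiation combined with a CTLA4-blocking antibody (9H10). They were isolated from unirradiated tumours that had resisted or relapsed after that therapy, in which the opposite flank received 20 Gy on day 8 with antibody doses on days 5, 8 and also 11. Control tumours came from sensitive B16-F10 cells. The first design held 7 Res 499, 1 Res 177 and 4 control tumours, and the second held 1 Res 177 and 1 control tumour. Each resistant group is thus a single subline. The labels do not say whether the profiled tumours were themselves treated, nor whether each came from its own mouse. The p-values below therefore speak of variation among these tumours, part of which may be technical. Mouse ages are not given.

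Type I interferons bind a shared receptor whose kinases activate Stat2. Stat2 and Irf9 are subunits of the factor ISGF3, which binds a sequence element in the promoters of interferon-stimulated genes. Many products of these genes act on viral RNA, proteins or membranes, while Irf7 amplifies the response and Usp18 dampens it at the receptor. In tumours the same genes can be expressed by the cancer cells and by the leukocytes among them.

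The stretch that ISGF3 binds contains a repeated GAAA. It was sought as GAAANNGAAA on either strand, which reads TTTCNNTTTC on the other, in RefSeq promoter windows of mouse build GRCm38.p6 that run from 250 bases before to 50 bases after each gene's start. Of the 37 genes, 29 had such a window and 11 of these (37.9%) held the letters, against 1079 of 27025 genes in the table (3.99%). The holders were Bst2, Ddx60, Eif2ak2, Ifit1, Ifit3, Ifitm3, Isg15, Rsad2, Stat2, Trim21 and Trim30a. The 6 sequences below were chosen to show single, repeated and overlapping matches in genes described later. They are written 5′ to 3′ on the gene's strand with 12 bases on each side, except after the last match in Ddx60. That stretch stops at base -1 from the gene's start, fewer than 12 bases on. Capitals mark the matching letters:
Isg15: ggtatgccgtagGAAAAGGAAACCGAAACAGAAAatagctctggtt
Bst2: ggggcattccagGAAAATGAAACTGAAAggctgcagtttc
Ddx60: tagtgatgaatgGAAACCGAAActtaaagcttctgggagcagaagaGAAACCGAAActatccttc
Stat2: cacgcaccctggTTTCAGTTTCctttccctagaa
Ifit1: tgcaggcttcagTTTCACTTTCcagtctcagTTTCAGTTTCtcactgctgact
Ifit3: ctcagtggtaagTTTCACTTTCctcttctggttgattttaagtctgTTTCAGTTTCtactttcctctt

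Isg15 encodes a ubiquitin-like protein, and its stretch lies at chr4:156200863-156200908 on the minus strand, with 3 overlapping matches between bases -78 and -57 from the start. The stretch of Bst2 lies at chr8:71537575-71537614 on the minus strand. That of Ddx60, with 2 separate matches, lies at chr8:61928022-61928086 on the plus strand. Stat2 had a single match, in chr10:128270264-128270297 on the plus strand. Ifit1 and Ifit3 are neighbouring family members on the plus strand of chromosome 19, at chr19:34640773-34640825 and chr19:34583361-34583428, with 2 matches each. A match is a run of letters and not a measured binding site.

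Array medians lay between 5.70 and 5.80 on the log2 scale, arrays of the first design correlated with each other at 0.985 to 0.996 across genes, and 0 arrays were identical. Melanocyte lineage genes had mean log2 levels of 12.46 to 12.81 in Res 499 tumours, 12.59 in the Res 177 tumour and 12.55 to 12.62 in control tumours. The mean of 5 leukocyte genes (Ptprc, Cd53, Laptm5, Coro1a and Lcp1) spanned 6.49 to 8.38 in Res 499 tumours, against 6.59 to 7.08 in control tumours, and was 7.79 in the Res 177 tumour. The Res 177 tumour stood apart in keratinocyte genes, whose mean lay 2.38 above the control mean.

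Res 499 tumours were compared with control tumours to ask how the first resistant subline differs from sensitive cells. Ifi27 rose in Res 499 tumours, and no other interferon-stimulated gene of the 32 tested passed an adjusted p of 0.05 (limma, Benjamini-Hochberg over all tested genes). Over all tested genes 0.144% were called higher. None of the 32 was called lower, against 0.21% of all genes. At an unadjusted p of 0.05, 18 of the 32 (56.2%) were higher and 0 were lower, against 6.68% and 6.29% of all genes. At an adjusted p of 0.10, Herc6, Ifi27, Ifi35, Rtp4 and Xaf1 were higher, 5 of 32, and 0 were lower, against 0.709% and 0.667%. The log2 change was above 0 in 28 of the 32 (87.5%), against 51.7% of all genes, and the median change was 0.64 for these genes and 0.005 for all genes. RNA was taken from whole tumours, so a change in the share of a cell type and a change in RNA per cell cannot be told apart.

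**Figure D1:**
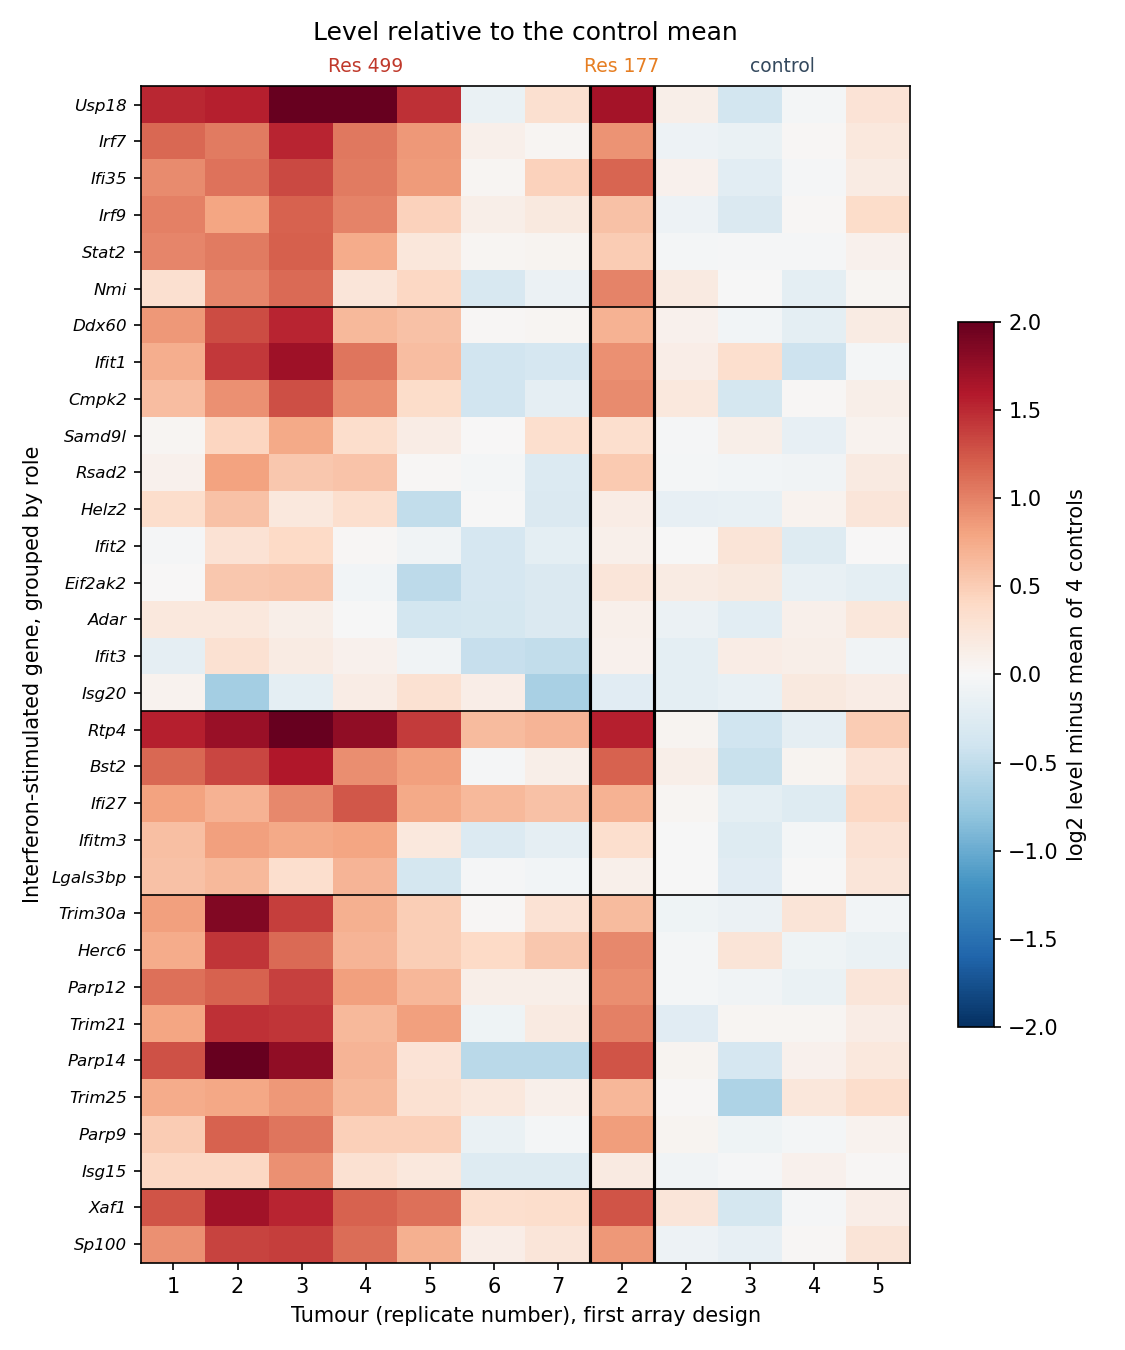
Log2 level of each interferon-stimulated gene (rows, by role) in each tumour of the first array design (columns, Res 499, then Res 177, then control), drawn as the difference from that gene's control mean with colours saturating at 2 in size. Res 499 replicates 1 to 4 are above the control mean in most rows, replicate 5 less so, and replicates 6 and 7 resemble control in most rows.

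Signalling and feedback genes were all above the control mean in Res 499 tumours, 6 of 6, against 51.7% of all tested genes. Their median log2 change was 0.75, and 0 of 6 passed the adjusted test, against 0.144% of all genes higher and 0.21% lower. Usp18, the protease that removes ISG15 from proteins and restrains the type I interferon receptor, had log2 levels of 7.34 at the lowest, 8.99 at the median and 9.53 at the highest in Res 499 tumours. It was at 9.14 in the Res 177 tumour and at 7.59, 7.11, 7.44 and 7.75 in control tumours. All Res 499 tumours but replicate 6 exceeded every control, and the change was 1.25 (SE 0.38, adjusted p = 0.177). Irf7, the factor that amplifies interferon gene transcription, spanned 6.78 to 8.27 with a median of 7.80 in Res 499 tumours, against 6.66, 6.61, 6.78 and 6.96 in control tumours, and was 7.65 in the Res 177 tumour. Here replicates 6 and 7 of Res 499 lay within the control range and the other 5 above it, with a change of 0.83 (SE 0.25, adjusted p = 0.182).

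The ISGF3 subunits Stat2 and Irf9 had a similar layout. Stat2 ran from 7.36 to 8.51 with a median of 8.06 in Res 499 tumours, against 7.27, 7.30, 7.30 and 7.40 in control tumours, and was 7.82 in the Res 177 tumour. Irf9 ran from 8.11 to 9.18 with a median of 8.78, against 7.89, 7.70, 8.02 and 8.36 in control tumours, and was 8.57 in the Res 177 tumour. For both genes 5 of 7 Res 499 tumours exceeded every control, with changes of 0.61 (SE 0.22, adjusted p = 0.256) for Stat2 and 0.68 (SE 0.21, adjusted p = 0.185) for Irf9. Ifi35 and Nmi, interferon-induced proteins that bind each other, had changes of 0.82 (SE 0.20, adjusted p = 0.0994) and 0.38 (SE 0.24, adjusted p = 0.556).

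The IFIT, MX and other antiviral effectors had the lowest class median, 0.10 over 11 tested genes. Of these, 7 were above 0, against 51.7% of all genes, and 0 were called, against 0.144% higher and 0.21% lower. Ddx60, a helicase linked to RNA sensing, had a change of 0.72 (SE 0.26, adjusted p = 0.255), with control levels of 5.20 to 5.55, below every array median. Cmpk2, a mitochondrial nucleotide kinase, had one of 0.51 (SE 0.28, adjusted p = 0.480). Ifit1, which binds viral RNA lacking host cap methylation, spanned 6.57 to 8.65 with a median of 7.68 in Res 499 tumours, against 7.08, 7.28, 6.53 and 6.91 in control tumours, and was 7.86 in the Res 177 tumour. The Ifit1 ranges overlapped through Res 499 replicates 6 and 7, and its change was 0.69 (SE 0.37, adjusted p = 0.461).

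Ifit3, a partner of Ifit1 that had 2 motif matches, was at 6.46 to 7.26 with a median of 6.88 in Res 499 tumours, against 6.76, 7.10, 7.07 and 6.89 in control tumours. Its change was -0.09 (SE 0.15, adjusted p = 0.847), and only replicates 2 and 3 of Res 499 exceeded every control. Isg20, an exonuclease, had the lowest change of the whole list, -0.12 (SE 0.19, adjusted p = 0.842). The other effectors with a negative change were Eif2ak2 (-0.02), the kinase PKR that halts translation on sensing double-stranded RNA, and Adar (-0.07), which edits adenosines in such RNA. Mx1 was dim and not tested. Its log2 levels were 4.47 to 5.33 in Res 499 tumours, 4.79 in the Res 177 tumour and 4.67, 4.76, 4.68 and 4.79 in control tumours. Near-identical copies exist for some of these genes, such as Ifit3 and Trim30a, and the share of signal from such copies was not tested.

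Among membrane-associated and secreted proteins 5 of 5 tested genes were above 0, against 51.7% of all genes, with a median of 0.81. Of these 5, 1 was called higher, against 0.144% of all genes. Ifi27, a small hydrophobic protein of mitochondrial and nuclear membranes, had log2 levels of 10.45 at the lowest, 10.61 at the median and 11.10 at the highest in Res 499 tumours. It was at 10.55 in the Res 177 tumour and at 9.90, 9.66, 9.61 and 10.27 in control tumours. Every Res 499 tumour lay above every control, including replicates 6 and 7. The means were 10.67 ± 0.22 (SD, n = 7) in Res 499 and 9.86 ± 0.30 (SD, n = 4) in control tumours, and Ifi27 rose by 0.81 on the log2 scale (SE 0.14, limma adjusted p = 0.0427), a 1.76-fold difference.

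The Ifi27 call was near its threshold and was lost when any of 7 tumours was left out. Its limma adjusted p was then 0.0722, 0.0729, 0.0637 and 0.0680 without Res 499 replicates 1, 3, 4 and 6, and 0.102, 0.101 and 0.169 without control replicates 2, 3 and 4. Its log2 change stayed between 0.73 and 0.95 in all 22 alternatives computed, but several of these could not move it. Changing the filter on dim genes, the eBayes settings or the threshold leaves the estimate at 0.81 by construction. The same holds for averaging probe sets, since Ifi27 has a single one, and for leaving out the other resistant subline. The extremes came from leaving out control tumours, with 0.73 without control replicate 4 and 0.95 without control replicate 5.

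Rtp4, a chaperone that brings G protein-coupled receptors to the cell surface, had the largest change of the list. Its log2 levels were 7.35 at the lowest, 8.27 at the median and 8.74 at the highest in Res 499 tumours, against 6.77, 6.32, 6.53 and 7.23 in control tumours, and 8.27 in the Res 177 tumour. All 7 Res 499 tumours exceeded every control, replicates 6 and 7 by little. The change was 1.40 (SE 0.27), a 2.64-fold difference with an adjusted p of 0.0513. Rtp4 passed the test without Res 499 replicate 2, 6 or 7 or without control replicate 5, where limma's adjusted p was 0.0453, 0.0380, 0.0404 and 0.0439. It moved further from the threshold without other tumours. The limma adjusted p was 0.106, 0.0787, 0.108 and 0.0590 without Res 499 replicates 1, 3, 4 and 5. Without control replicates 2, 3 and 4 it was 0.117, 0.147 and 0.205. Bst2 (tetherin), which holds budding viruses at the membrane, had a change of 0.85 (SE 0.28, adjusted p = 0.224). Ifitm3, which blocks virus entry from endosomes, had a change of 0.39, and the secreted glycoprotein gene Lgals3bp one of 0.26.

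**Figure D2:**
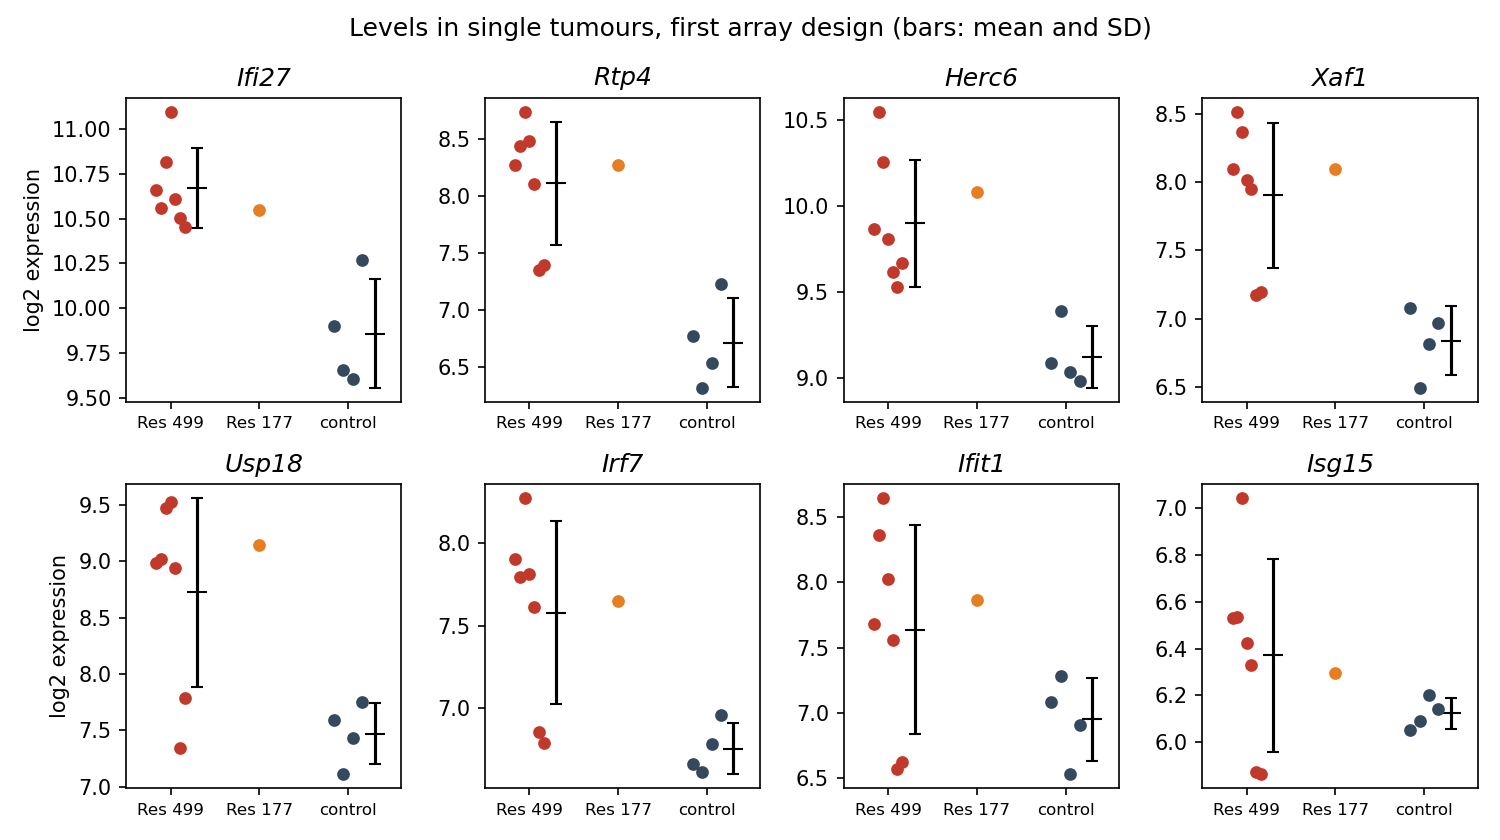
Log2 level in each tumour of the first array design for genes described in the text, with Res 499, Res 177 and control points from left to right in each panel and bars at the mean and SD of the Res 499 and control groups. In the Ifi27 and Rtp4 panels all 7 Res 499 points lie above the 4 control points, while in the Isg15 and Ifit1 panels the points overlap.

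Enzymes of ISG15, ubiquitin and ADP-ribose transfer were above 0 in 8 of 8 tested genes, against 51.7% of all genes. Their median was 0.73 and 0 were called, against 0.144% of all genes higher and 0.21% lower. Herc6, which in mice attaches ISG15 to proteins, spanned 9.53 to 10.55 with a median of 9.81 in Res 499 tumours, against 9.09, 9.39, 9.03 and 8.98 in control tumours, and was 10.08 in the Res 177 tumour. The 2 ranges did not overlap, and the change was 0.77 (SE 0.18, adjusted p = 0.0843). Isg15 itself spanned 5.86 to 7.04 with a median of 6.43 in Res 499 tumours, against 6.05, 6.09, 6.20 and 6.14 in control tumours, and was 6.30 in the Res 177 tumour. Its groups overlapped, since replicates 6 and 7 of Res 499 lay below every control, and its change was 0.25 (SE 0.19, adjusted p = 0.628). Trim30a, a ubiquitin ligase family member of mice, had a change of 0.80 (SE 0.28, adjusted p = 0.249). Its levels in control tumours were 5.26 to 5.63, below every array median. Trim30a, Isg15 and Ddx60 were dim enough to go untested when the dimmest 50% of genes were dropped, which left 29 of the 32 genes. The mono-ADP-ribosyltransferase gene Parp12 had one of 0.77 (SE 0.23, adjusted p = 0.174), and Parp9, which acts with Dtx3l, one of 0.51 (SE 0.22, adjusted p = 0.357). Herc6 passed the adjusted test without Res 499 replicate 2, where calls over all genes numbered 196, against 59 with all tumours. Ifi35 passed without replicate 6, where they numbered 23. Each passed in 1 of 12 fits that left out a tumour, with limma adjusted p up to 0.269 for Herc6 and 0.290 for Ifi35.

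The remaining tested genes, Xaf1 and Sp100, had changes of 1.06 (SE 0.25, adjusted p = 0.0843) and 0.83 (SE 0.23, adjusted p = 0.141). Xaf1, which antagonises the apoptosis inhibitor XIAP, spanned 7.17 to 8.51 with a median of 8.01 in Res 499 tumours, against 7.08, 6.49, 6.81 and 6.97 in control tumours, and was 8.09 in the Res 177 tumour. Sp100 encodes a component of PML nuclear bodies. A second bright Sp100 probe set, with a mean log2 level of 7.89, gave a change of 1.08. The other 2, at levels of 4.21 and 3.93, below the lowest mean of any tested gene (4.94), gave 0.23 and 0.01. The second Ifi35 probe set, at a level of 5.68 near the array median, gave 0.0036 beside the 0.82 of the brighter one. That of Lgals3bp, at a level of 7.52, gave 0.06 beside 0.26. For Xaf1 the lowest Res 499 tumour still exceeded the highest control. In all, 4 genes had every Res 499 tumour above every control, namely Herc6, Ifi27, Rtp4 and Xaf1, which is 12.5% of the 32 against 1.23% of all tested genes. None had every Res 499 tumour below every control, against 1.15%. A further 4, Ifi35, Trim21, Trim30a and Usp18, had 6 of the 7 Res 499 tumours above every control, and 14 had 5 of 7. The shares of all tested genes with 6 or 5 of 7 were not computed, so these counts have no background.

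The Res 499 tumours were not alike. The number of the 32 genes above every control was 25, 30, 29, 27, 23, 4 and 9 in Res 499 replicates 1 to 7, and 26 in the Res 177 tumour. Set against the other 3 controls only, the number was 3, 6, 3 and 20 in control replicates 2 to 5. Control replicate 5 alone thus came near the count of Res 499 replicate 5. The same share over all tested genes was 25.9%, 19.6%, 20.7%, 25.1%, 31.9%, 20.4% and 22.4% in those Res 499 tumours, 22.5% in the Res 177 tumour, and 19.1%, 28.1%, 21.7% and 29.99% in the control tumours. In replicate 6 the 4 genes were Herc6, Ifi27, Rtp4 and Xaf1. Replicate 3 held the highest Res 499 value in 17 genes and replicate 2 in 11, whereas replicate 6 held the lowest in 21. The exceptions at the top were Ifi27, Lgals3bp and Usp18, highest in replicate 4, and Isg20, highest in replicate 5. The standard deviation was larger among Res 499 than among control tumours in 30 of 32 genes, all but Ifi27 and Trim25, against 60.2% of all tested genes. The median ratio of the 2 standard deviations was 2.29, against 1.17 over all genes, with 7 tumours in the numerator and 4 in the denominator.

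Levels of leukocyte genes moved with these values. Relative to the control mean, the mean of the interferon-stimulated genes was 0.69, 0.97, 1.06, 0.71, 0.41, -0.03 and 0.01 in Res 499 replicates 1 to 7, 0.69 in the Res 177 tumour, and 0.00, -0.12, -0.03 and 0.15 in control replicates 2 to 5. The mean of the 5 leukocyte genes, relative to its own control mean, was 1.28, 1.59, 1.58, 0.31, 1.23, 0.28 and -0.30 in the same Res 499 tumours, 1.001 in the Res 177 tumour, and 0.29, -0.20, -0.16 and 0.07 in the control tumours. Res 499 replicate 4 stood apart in combining a mean of 0.71 for interferon-stimulated genes with a leukocyte mean close to that of control replicate 2. Macrophage and monocyte genes were above 0 in 15 of 15 tested, against 51.7% of all genes, with a median change of 0.86 in Res 499. None of them was called, against 0.144% of all genes higher and 0.21% lower. Their mean level was 6.82 to 9.01 in Res 499 tumours, against 6.98 to 7.47 in control tumours. T cell genes averaged 5.30 to 6.31 in Res 499 tumours, against 5.31 to 5.67 in control tumours. Plasmacytoid dendritic cells are strong interferon producers. Their genes averaged 5.22 to 5.37 in Res 499 tumours, 5.58 in the Res 177 tumour and 5.25 to 5.40 in control tumours, and their marker Siglech had a change of 0.07 (SE 0.11, adjusted p = 0.848). The Res 177 mean rests on Ly6d, which keratinocytes also express and which was 1.15 higher there than in control tumours, while Siglech and Cox6a2, the other tested genes of that list, differed by -0.001 and 0.0004. Fibroblast genes also varied, from 0.84 below to 1.44 above the control mean.

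**Figure D3:**
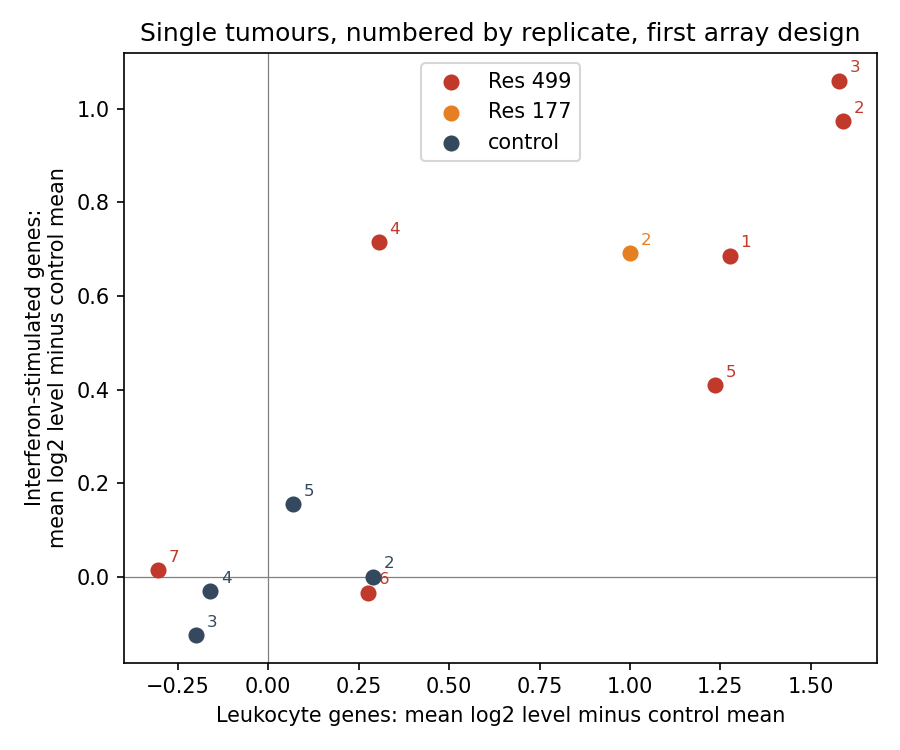
Mean log2 level of the tested interferon-stimulated genes (vertical axis) against that of 5 leukocyte genes (horizontal axis) in each first-design tumour, each relative to its control mean, with points labelled by replicate number. Res 499 replicates 2 and 3 lie at the upper right, replicates 6 and 7 lie among the control points, and replicate 4 lies high on the vertical axis at a leukocyte value of 0.31.

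With each tumour's leukocyte mean added to the model as a covariate, the median log2 change of the 32 genes in Res 499 was 0.18, against 0.01 over all genes, and 21 of 32 were above 0, against 53.4% of all genes. No interferon-stimulated gene was called in that model (limma), against 0.108% of all genes higher, and 5 of the 32 were higher at an unadjusted p of 0.05, against 6.08% of all genes. The log2 change of Ifi27 was then 0.76 (adjusted p = 0.124), close to the 0.81 without the covariate. For Rtp4 it was 0.92 (adjusted p = 0.155), for Usp18 0.64, for Xaf1 0.53 and for Herc6 0.51. By class the medians were 0.35 for signalling and feedback, -0.07 for antiviral effectors, 0.25 for membrane-associated and secreted proteins, 0.23 for the ISG15, ubiquitin and ADP-ribose enzymes, and 0.47 for Xaf1 and Sp100. The sign turned for 7 genes, namely Nmi (-0.13), Ifit1 (-0.005), Ifit2 (-0.20), Rsad2 (-0.0217), Helz2 (-0.0662), Isg15 (-0.11) and Parp14 (-0.28). Leukocyte level and subline are partly tied in these 12 tumours, so this model has little room to separate them.

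**Figure D4:**
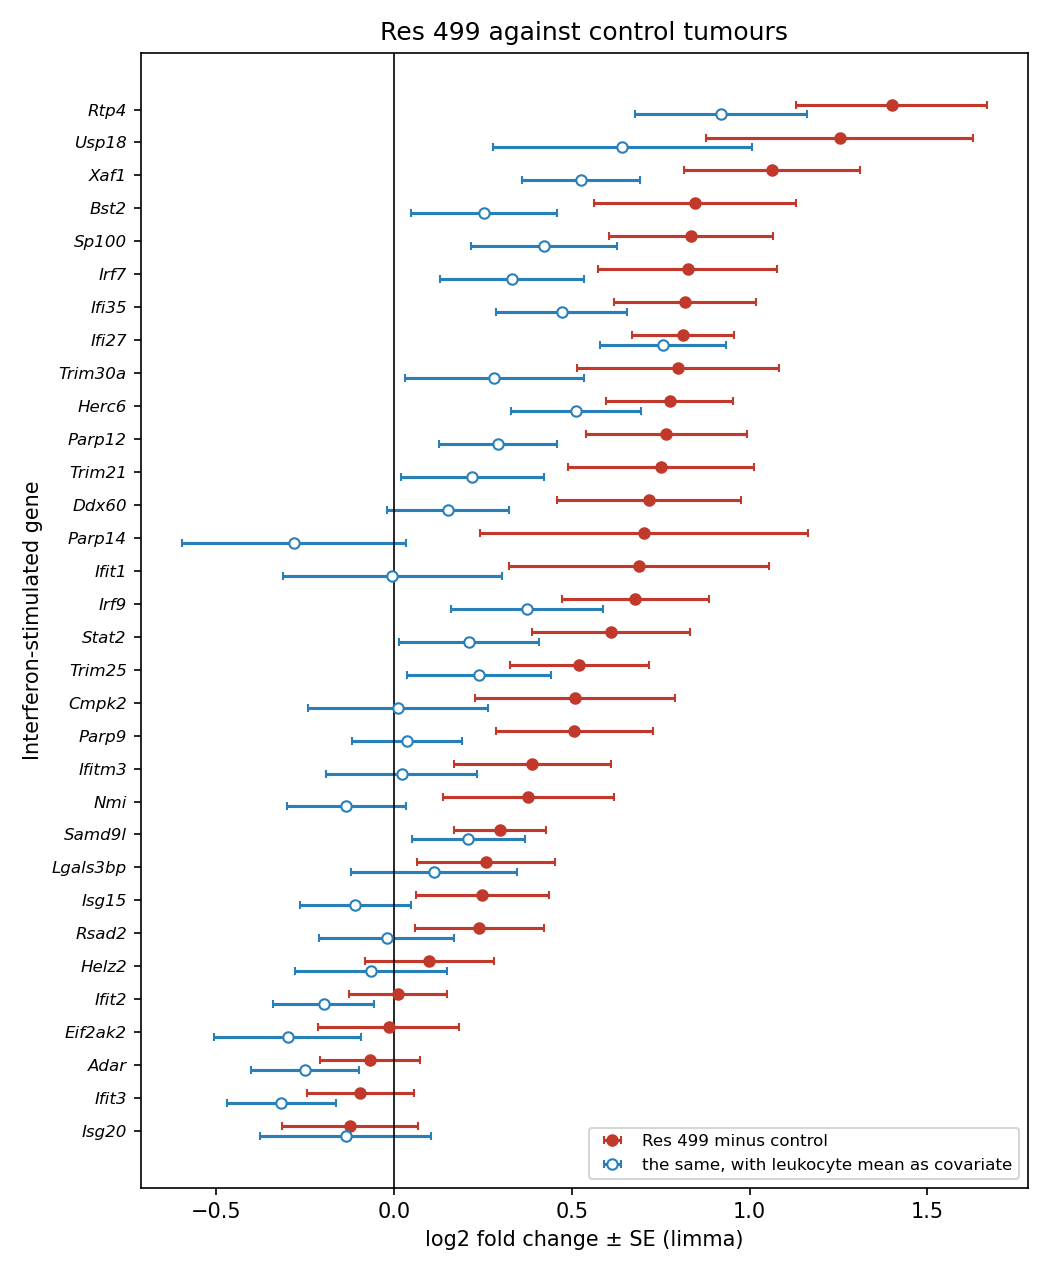
Log2 change (horizontal axis, bars show the limma standard error) of each tested interferon-stimulated gene in Res 499 against control tumours, without (filled) and with (open) the leukocyte mean as a covariate. Without the covariate 28 of 32 points lie above 0, and with it 21 do, with Ifi27 at 0.81 and 0.76.

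The labels also class all tumours as resistant or sensitive. Across the 8 resistant tumours of the first design, of which 7 were Res 499, and the 4 sensitive ones, Ifi27 and Rtp4 rose, 2 of 32 genes against 0.289% of all genes. Ifi27 rose by 0.80 (SE 0.14, limma adjusted p = 0.0255) and Rtp4 by 1.42 (SE 0.25, limma adjusted p = 0.0324). None of the 32 was called lower, against 0.325% of all genes. The change was above 0 in 29 of 32 genes, against 52.4%, with a median of 0.63, and 18 were higher and 0 lower at an unadjusted p of 0.05, against 7.11% and 6.26%. At an adjusted p of 0.10, 5 were higher and 0 lower, against 0.739% and 0.787%. Ifi27 lost its call without Res 499 replicate 3 or control replicates 2, 3 or 4, at limma adjusted p of 0.0525, 0.0712, 0.0771 and 0.134. Rtp4 lost its call without the Res 177 tumour (0.0513), without Res 499 replicates 1, 3 or 4 (0.0570, 0.0539 and 0.0608) or without control replicates 2, 3 or 4 (0.0822, 0.102 and 0.141), all limma adjusted p. With the sublines weighted equally, the adjusted p was 0.134 for Ifi27 and 0.115 for Rtp4.

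The Res 177 subline was read in 1 tumour on each design, so the 2 designs give separate readings against separate controls. On the first design its spread was borrowed from the other groups in the fit. There 31 of 32 genes were above the control mean, against 53.3% of all genes, and 26 of 32 lay above every control, against 22.5%. None passed the adjusted test in limma, against 0.21% of all genes called higher, while 9 of 32 were higher and 0 lower at an unadjusted p of 0.05, against 2.56% and 1.52% of all genes. The median log2 difference was 0.69 over these genes and 0.01 over all genes. On the second design, where no test is possible, 22 of 35 genes were at least 0.5 higher in the Res 177 tumour on the log2 scale, against 3.88% of all genes, and 0 were as much lower, against 1.88%. There 34 of 35 were above 0, against 57.5%, and the exception was Eif2ak2 at -0.14. The median over the 35 genes was 0.65, against 0.04 over the 15034 genes that were also tested on the first design.

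Rtp4 and Usp18 were far above control on both designs. Rtp4 differed by 1.56 on the first design and by 1.80 on the second, where its levels were 9.12 in the Res 177 tumour and 7.32 in the control tumour. Usp18 differed by 1.67 and 1.33, with second-design levels of 9.97 in the Res 177 tumour and 8.64 in the control tumour. The smallest of these differences was thus 1.33, that of Usp18 on the second design. Parp14, a mono-ADP-ribosyltransferase gene, differed by 1.26 and 1.11, Bst2 by 1.19 and 1.09, Ifi35 by 1.17 and 1.01, Xaf1 by 1.25 and 0.99, and Ifi27 by 0.69 and 0.67. Sp100 and Trim30a differed more on the second design, by 2.21 and 1.88, than on the first, by 0.86 and 0.64. Trim30a was at 8.28 in the second-design control tumour but at 5.26 to 5.63 in the dimmer first-design control readings. Ifi27l2a and Dtx3l, read only on the second design, differed by 0.37 and 0.39, and Mx1 and Mx2 by 0.11 and 0.06. Of 31 genes tested on the first design and read on the second, 29 were above 0 on both, against 37.7% of all such genes, and 18 were at least 0.5 on both, against 1.78%. The 2 others were Isg20, at -0.22 on the first design and 0.60 on the second, and Eif2ak2. Leukocyte genes were also above control on both designs, 5 of 5 each, by 0.31 to 1.82 on the first and 0.63 to 2.12 on the second, as were macrophage and monocyte genes, 15 of 15 each, with medians of 1.01 on the first and 1.21 on the second. Keratinocyte genes were above control in 5 of 5 tested on the first design, with a median of 2.39, and in 6 of 6 on the second, with a median of 1.14. The part of these cell types in the second-design result was not tested.

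**Figure D5:**
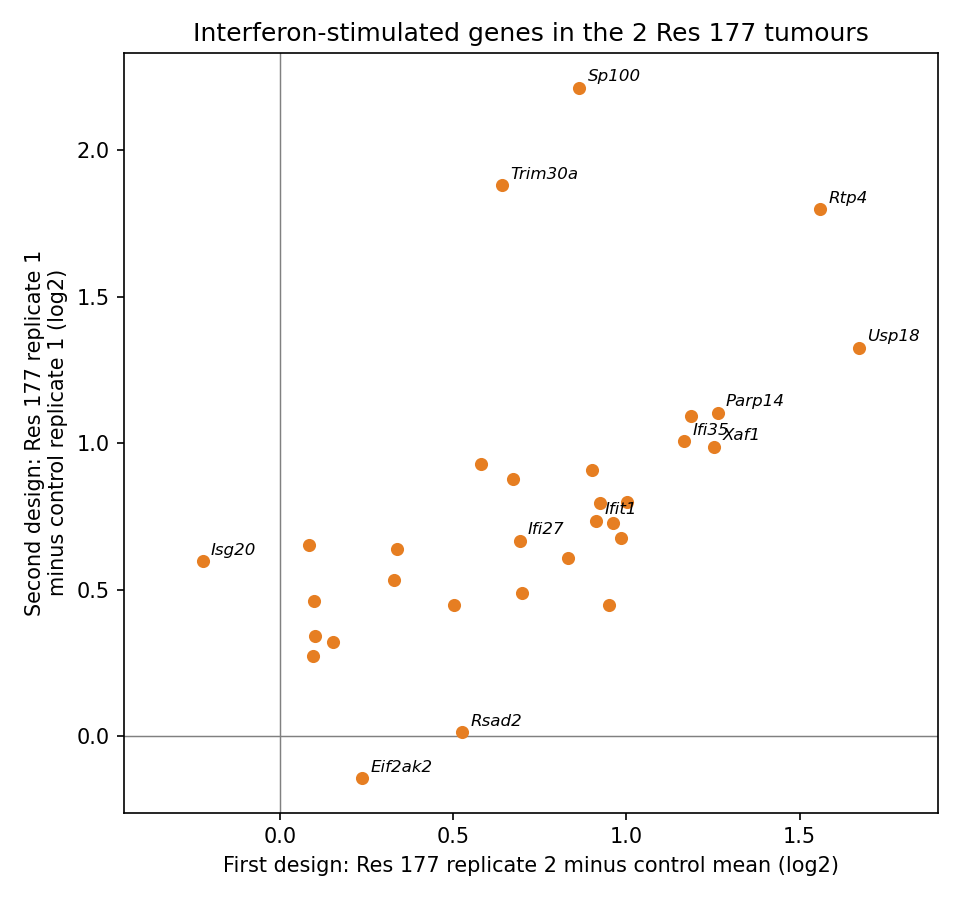
Log2 difference of each interferon-stimulated gene between the Res 177 tumour and control on the second design (vertical axis, 1 tumour each) against that on the first (horizontal axis, 1 Res 177 tumour minus the mean of 4 controls). Of the 31 points 29 lie above 0 on both axes, with Rtp4 at 1.56 and 1.80 and Isg20 and Eif2ak2 as the exceptions.

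Res 499 and Res 177 tumours were then set against each other on the first design, since both comparisons above share the 4 control tumours. No interferon-stimulated gene was called, against 0% of all genes higher and 0.234% lower in Res 499, and 0 of 32 had an unadjusted p under 0.05 in limma in either direction, against 0.998% and 1.94%. The change was above 0 in 9 of 32 genes, against 47.5% of all genes, with a median of -0.16. It ran from -0.61 for Nmi to 0.16 for Lgals3bp. For Ifi27 it was 0.12 (SE 0.24) and for Rtp4 -0.16 (SE 0.46). With 1 Res 177 tumour these standard errors allow differences as large as most changes described here.

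Other genes of the pathway in Res 499 against control tumours are given for context. Among all tested genes 51.7% were above 0, 0.144% were called higher and 0.21% lower, with a median of 0.005. Of 6 tested interferon genes 3 were above 0 and 0 were called, with a median of -0.03, and the largest change was that of Ifna4, -0.11 (SE 0.12, adjusted p = 0.751). Receptor and JAK-STAT genes had 12 of 15 above 0, 0 called and a median of 0.12, with the factor gene Irf1 at 0.48 (SE 0.39, adjusted p = 0.663). Nucleic acid sensors had 11 of 12 above 0, 0 called and a median of 0.46, and the DNA sensor gene Ifi204 was at 1.60 (SE 0.66, adjusted p = 0.326). Interferon-inducible GTPases had 11 of 11 above 0, 0 called and a median of 1.02, led by Igtp at 1.34 (SE 0.85, adjusted p = 0.549). Control means of Ifi204, Gbp4 and Gbp8 were 4.25, 4.59 and 4.26, below the lowest mean of any tested gene (4.94). These genes passed the filter on dim genes only through the resistant tumours, so their positive sign is partly set by that filter. Some products of the Oas genes, though not all, make the activator of RNase L. Of the Oas genes 7 of 7 were above 0 with a median of 0.93, and Oas1b rose by 0.93 (SE 0.10, limma adjusted p = 0.00445). Oas1g had the largest change of that family, 1.19 (SE 0.26, adjusted p = 0.0770).

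The promoter letters shown earlier were set beside the changes. The 11 holders of GAAANNGAAA had a median log2 change of 0.61 in Res 499, from -0.09 for Ifit3 to 0.85 for Bst2. The 16 tested genes whose window lacked the letters had a median of 0.51, from -0.12 for Isg20 to 1.06 for Xaf1, so the ranges overlapped. Isg15, with 3 overlapping matches, had a change of 0.25, while Stat2, with a single match, had 0.61. Ifi27, Rtp4 and Usp18 are among 8 genes without a window in the table.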

How the data were processed

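RNA from B16-F10 tumours was hybridised to 2 Affymetrix designs. The authors deposited log2 expression values. The submitters' processing notes name oligo and RMA, a method that removes background, equalises the distributions of arrays by quantiles and summarises each probe set. No source used here gives their versions or any batch. Groups follow the subline label, and replicate numbers only name tumours in accession order. The 2 matrices were normalized separately and were never pooled. Arrays number 12 and 2, which limits the precision.

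Of 41345 probe sets on the first design, 23521 carried 1 symbol in the platform annotation. The brightest per gene was kept, and the dimmest 25% of genes were left out. One limma 3.58.1 model (R 4.3.3) with 3 groups, lmFit and eBayes, gave 3 contrasts, and a second model compared resistant with sensitive tumours. P-values were adjusted by Benjamini-Hochberg over 16635 genes at 0.05. The fits were tested on simulated data with 200 changed genes. The second design has 1 tumour per group, so differences of at least 0.5 were counted without a test.

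The members and lists were chosen with earlier results of these data known. Genes are named where they passed in any comparison, as the 3 largest and 2 smallest changes of each role class in Res 499, as Ifit1, Isg15, Mx1, Irf7, Stat2, Irf9, Usp18 and Rtp4, and, in other pathway lists, as called genes and the largest change. Further names, such as those in counts of 5 or fewer or in the Res 177 readings, were chosen after their values were seen. Alternatives changed the filter, the probe set rule, the scaling, the eBayes settings, array weights, the covariate, the threshold and the tumours included. Promoter windows are from RefSeq, GRCm38.p6.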

Additional observations from a re-analysis of the deposited data

Results flagged for a closer look

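In 70 groups of values, each a gene in 1 group of tumours, 1 tumour lay far from the others of its group. Rsad2, which encodes the antiviral enzyme viperin, had a log2 level of 9.09 in control replicate 5, against 8.84 to 8.87 in the other 3 control tumours. Chance alone marks about 1 group in 20 under this criterion.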

How the results depend on the processing

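The number of interferon-stimulated genes called higher in Res 499, 1 as reported, became 2 when the dimmest 50% of genes were dropped, 2 with the mean over probe sets, 2 with quantile normalization repeated, 4 with array weights, 5 at a threshold of 0.10 and 0 with the leukocyte covariate. Leaving out each tumour in turn gave 0 to 3. For resistant against sensitive tumours, 2 as reported, it was 4 with the dimmest 50% dropped, 6 with array weights, 5 at 0.10, 0 with the covariate and 0 with the sublines weighted equally, and 0 to 5 leaving out each tumour. Over all genes, calls in Res 499 in either direction numbered 59 as reported. They numbered 84 with the dimmest 50% dropped, 64 with the mean over probe sets and 80 with quantile normalization repeated. With array weights they were 356, at a threshold of 0.10 229, with the leukocyte covariate 24 and with arrays centred on their median 39. Leaving out each tumour gave 6 (without control replicate 4) to 196 (without Res 499 replicate 2). For resistant against sensitive tumours, calls over all genes numbered 102 as reported, 115 with the dimmest 50% dropped and 366 with array weights. They were 254 at 0.10, 34 with the covariate, 42 with the sublines weighted equally, and 9 to 141 leaving out each tumour.

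Median changes moved with the covariate, to 0.18 in Res 499, 0.22 in Res 177 and 0.17 in resistant tumours. Leaving out tumours gave 0.51 to 0.74, 0.65 to 0.81 and 0.54 to 0.72 for these comparisons, and -0.22 to -0.05 for Res 499 against Res 177. The Res 177 range could move only with the control tumours, since leaving out a Res 499 tumour cannot alter that change. The single Res 177 tumour could not itself be left out there. Under the covariate the Res 499 change turned sign for Nmi (-0.13), Ifit1 (-0.0050), Ifit2 (-0.20), Rsad2 (-0.0217), Helz2 (-0.0662), Isg15 (-0.11) and Parp14 (-0.28). Leaving out tumours turned changes near 0, within -0.0757 to 0.0953 for Ifit2, -0.11 to 0.0687 for Eif2ak2 and -0.14 to 0.00599 for Adar. The cause of these shifts was not tested. No interferon-stimulated gene was called in Res 177 in any of 20 alternatives. With 3 bases between the repeats, 6 of the 29 genes with a window held the letters (20.7%), against 3.17% of all genes. With 1 base between them, 9 of the 29 did (31.0%), against 3.7%. No paired analysis was possible because the replicate numbers were assigned in accession order.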
